A study of Mus musculus with 6 samples.

Results

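The 39 genes described here encode proteins that license replication origins, fire them and run the replication fork. They were chosen by name: every probe that was not a control and whose gene name in the scanner output was 1 of the 39 was collected, and the brightest probe stood for its gene. All 39 genes were found, on 51 probes, among 17007 named genes that were tested. The arrays measured total RNA of mouse embryonic fibroblasts of the ICR strain in 6 groups of 1 array each. Transfected cells had received an H-Ras and SV40T expressing vector, and were of the genotypes Clk/Clk, Per2m/m and wild type. Mock cells of the same 3 genotypes were their controls. For transfected Per2m/m cells the source name mentions H-Ras without SV40, while the treatment label and the title name both. The labels give neither the promoter of the vector nor the number of embryos, clones or passages behind a culture. Clk/Clk is the customary symbol of mice homozygous for the Clock mutation, and PER2, the protein named in the study's title, is a repressor of the circadian clock.

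In G1 phase the origin recognition complex, CDC6 and CDT1 load the ring-shaped MCM2-7 helicase onto origins in an inactive form, and geminin blocks CDT1 once S phase has begun. The kinases CDC7 and cyclin E-CDK2, with CDC45, the GINS complex and MCM10, turn the loaded ring into an active helicase, after which primase, polymerases, clamp loaders, PCNA and nucleases copy both strands. Many of these genes are transcribed before S phase under E2F transcription factors, which RB family proteins hold in check, and SV40 large T antigen is known to bind RB family proteins. In bulk RNA a larger share of cells in S phase and more RNA per cell cannot be told apart.

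Of the 59305 non-control spots of an array, 49.3% on the transfected Per2m/m array and 53.5% to 57.3% on the others lay well above background. The transfected Per2m/m array stood apart: its median correlation with the other arrays across genes was 0.857, against 0.931 to 0.946 for theirs. Xist, the RNA of the inactive X chromosome, together with Ddx3y and Eif2s3y of the Y chromosome, were not well above background there, at levels of -6.18, -6.74 and -6.85, against -0.53, -0.05 and -0.81 on the mock Per2m/m array. Xist was also below background on both Clk/Clk arrays, while Ddx3y and Eif2s3y were above it on the other 5 arrays. All 11 fibroblast markers were well above background on every array except Fap and Lum, which were not on the transfected Per2m/m and wild type arrays. The summed fibroblast level was 1149 to 1623 times the array's 75th percentile on transfected arrays and 1536 to 1954 times on mock arrays. Of 15 macrophage markers, 9 were well above background on each transfected array and 9 to 15 on mock arrays, with summed levels of 18.4 to 57.4 and 47.6 to 62.2. Epithelial markers (6 of 10 on each transfected array, 6 to 7 on mock arrays) summed to 0.758 to 6.64 and 1.29 to 4.80, and Epcam was above background on none of the 6 arrays. Cdh1 and Krt8 were above background only on the transfected Per2m/m array, where Krt18 and Krt19, above it on all others, were not. That array had the highest epithelial sum, 6.64. Endothelial markers (2 to 3 of 6 on transfected arrays, 2 to 4 on mock arrays) summed to 6.26 to 10.5 and 7.91 to 9.31, and Cdh5 was above background on none of the 6 arrays. The part of these differences in the results below was not tested.

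A level below is log2 of the processed signal minus log2 of the array's 75th percentile of it, and a response is the level on the transfected array minus the level on the mock array of the same genotype. With 1 array per group a response has no test, and a ratio of 2 arrays has a spread of 0.08 (log2) from spot noise alone. That spread comes from 225 probes with repeated spots, well above background on every array. It was not measured separately for dim genes. Most replication genes had a higher level in transfected than in mock fibroblasts of every genotype. The median response of the 39 genes was 0.78 in Clk/Clk, 1.02 in Per2m/m cells and 1.06 in wild type cells, beside medians over all genes tested of 0.02, 0.12 and -0.00. Responses were above 0 for 37 genes in Clk/Clk, 33 in Per2m/m cells and 38 in wild type cells. Of all 17007 genes tested, 8780, 9222 and 8481 were above 0. At least 2-fold higher levels were counted for 7 of the 39 in Clk/Clk cells, where 3.77% of all genes tested reached that size. The count was 21 of 39 in Per2m/m cells, against 18.5% of all genes, and 22 of 39 in wild type cells, against 7.43%. The wild type count was 21 with Ccne2 at its bound. At least 2-fold lower levels were found for 0 of 39 genes in Clk/Clk cells (4.16% of all genes), for 0 in wild type cells (11.9%) and for 3 in Per2m/m cells (20.7%). These 3 were Rrm2, Ccne1 and Gins2.

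Across genotypes, 31 of the 39 genes were higher in transfected cells of all 3 genotypes, a pattern held by 17.8% of all genes tested. For 25 genes every transfected array lay above every mock array, against 6.54% of all genes. Without the transfected Per2m/m array that count was 29, against 8.97%. Mcm2 and Pold1 were at least 2-fold higher in all 3 genotypes, which 0.1% of all genes were.

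The additive limma model of genotype and transfection, fitted to all 6 arrays, called 0 of the 39 genes for transfection at a Benjamini-Hochberg adjusted p under 0.05, and 0.0% of all 17007 genes. The members' adjusted p lay between 0.695 and 0.973. The fitted transfection coefficient was positive for 37 of 39 genes, against 8857 of all 17007. Its median was 0.95 for the 39, beside a median of 0.03 over all genes. At an unadjusted p under 0.05, 24 of the 39 were higher and 0 lower, where 2.06% of all genes were higher. The model leaves 2 residual degrees of freedom, in which array noise and a response that differs between genotypes are not separated. Its p-values and standard errors rest only on the spread between these 6 samples. Limma draws each gene's spread toward a value shared by all genes tested, so they are not the gene's own spread alone.

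**Figure D1:**
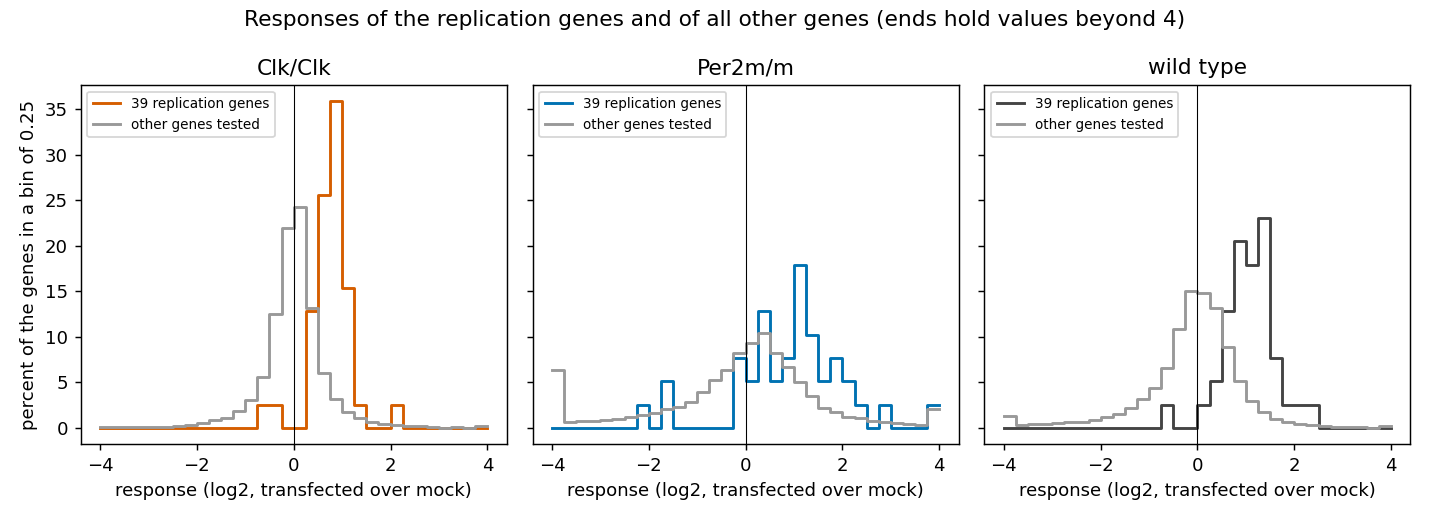
Percent of genes (vertical axis) by response, the log2 of the transfected over the mock array (horizontal axis, bins of 0.25), for the 39 replication genes (coloured or dark line) and all other genes tested (grey line) in Clk/Clk, Per2m/m and wild type cells. The replication genes' medians lie at 0.78, 1.02 and 1.06 while the grey curves centre near 0, and the grey curve is widest in Per2m/m cells.

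The 6 subunits of the MCM2-7 helicase, the ring that unwinds DNA at the fork, had higher levels on the transfected array of every pair. Mcm2 had levels of 3.09 in transfected Clk/Clk, 4.41 in transfected Per2m/m and 4.00 in transfected wild type cells, against 1.94, 2.31 and 2.65 in mock cells of these genotypes. Transfected Mcm3 levels were 4.70 in Clk/Clk, 5.91 in Per2m/m cells and 5.70 in wild type cells, and mock levels were 3.91, 4.21 and 4.38. Mcm4 stood at 4.93 in Clk/Clk, 6.06 in Per2m/m cells and 6.06 in wild type cells after transfection, and at 3.98, 4.78 and 4.90 in the mock cells. For each of these 3 genes the lowest of the transfected arrays was Clk/Clk, and it still lay above every mock array, for Mcm4 by less than the spot noise. Mcm5 reached 3.91 in transfected Clk/Clk, 4.35 in transfected Per2m/m and 4.74 in transfected wild type cells, against 2.99, 3.27 and 3.34 in mock cells. Mcm6 levels with the vector were 6.18 in Clk/Clk, 7.04 in Per2m/m cells and 6.85 in wild type cells, and without it 5.33, 5.48 and 5.82. Mcm7 was at 5.32 in Clk/Clk, 5.33 in Per2m/m cells and 5.43 in wild type cells when transfected, against 4.57, 4.05 and 4.09 when mock transfected. Mcm7 differed from the other 5 in that its mock Clk/Clk level was the highest mock level, and its 3 transfected levels lay within 0.11 of each other.

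Within the helicase the responses ran from 0.74 (Mcm7) to 1.16 (Mcm2) in Clk/Clk, from 1.09 (Mcm5) to 2.10 (Mcm2) in Per2m/m and from 1.03 (Mcm6) to 1.40 (Mcm5) in wild type cells. At least 2-fold higher were all 6 subunits in wild type and Per2m/m cells and 1 subunit, Mcm2, in Clk/Clk cells. The fitted coefficients were 1.54 ± 0.32 for Mcm2, 1.27 ± 0.31 for Mcm3, 1.13 ± 0.25 for Mcm4, 1.13 ± 0.26 for Mcm5, 1.15 ± 0.29 for Mcm6 and 1.12 ± 0.28 for Mcm7 (standard errors of the fit). These correspond to 2.90-fold for Mcm2 and 2.18-fold to 2.41-fold for the others, each with a limma adjusted p of 0.695. The probes sit at chr6:88833619-88833678 (Mcm2), chr1:20793119-20793178 (Mcm3), chr16:15624372-15624431 (Mcm4), chr8:77651350-77651410 (Mcm5), chr1:130228178-130228237 (Mcm6) and chr5:138605925-138605984 (Mcm7) on build mm9. A second Mcm3 probe at chr1:20793136-20793195 overlaps the first and gave responses of 0.62 in Clk/Clk, 1.70 in Per2m/m cells and 1.28 in wild type cells, beside 0.79, 1.70 and 1.32 for the brightest.

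**Figure D2:**
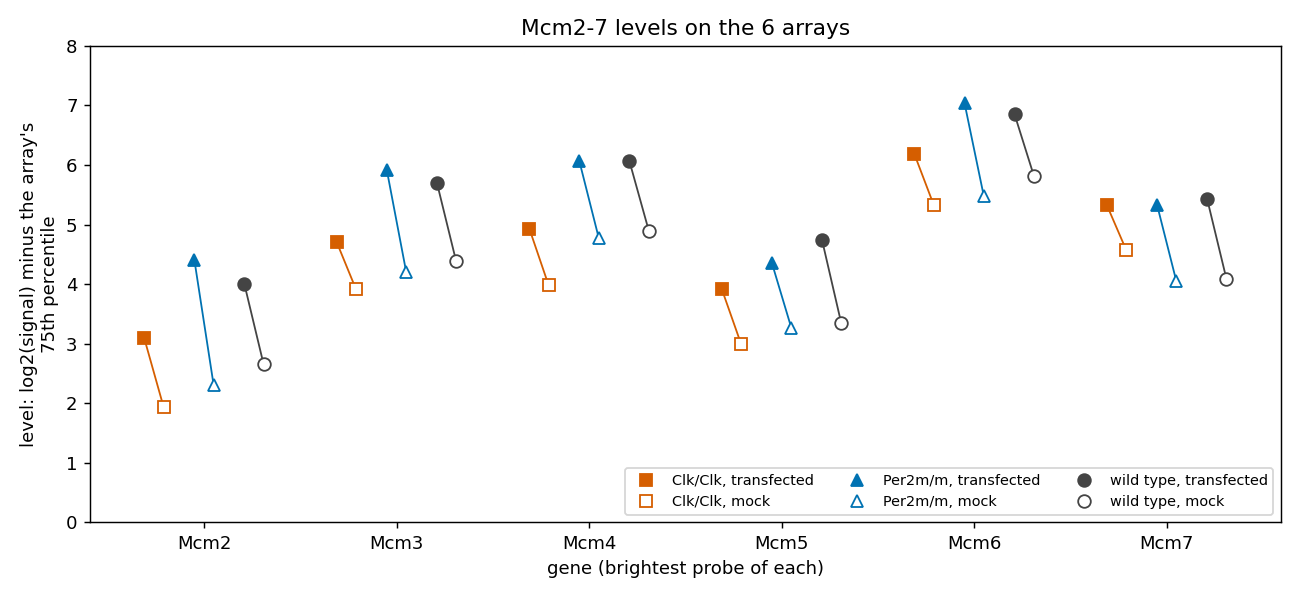
Levels of Mcm2 to Mcm7 (log2 of the signal minus that of the array's 75th percentile, vertical axis) on the 6 arrays. Filled marks are transfected and open marks mock cells of Clk/Clk (squares), Per2m/m (triangles) and wild type (circles) genotype, and a line joins each pair. In all 6 genes the lowest filled mark lies above the highest open mark. Levels are not comparable between genes.

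The promoters of 31 of the 39 genes, 37 promoters in all, were matched by symbol in RefSeq's table for GRCm38.p6, whose windows hold 250 bases before and 50 bases after the start. Of these 37, 13 promoters, each of a different gene, hold an E2F site, searched on both strands as TTTCCCGC, TTTCGCGC, TTTGCCGC or TTTGGCGC. That is 35.1%, against 2.26% of all 32851 promoters in the table. The promoters of the helicase genes that hold such a site are shown because E2F factors are known regulators of these genes. They lie at chr1:20820263-20820562 (Mcm3, minus strand), chr8:75109259-75109558 (Mcm5, plus strand), chr1:128359656-128359955 (Mcm6, minus strand) and chr5:138171834-138172133 (Mcm7, minus strand). Each is written 5′ to 3′ in the direction of its gene, with the E2F matches in capitals.
Mcm3: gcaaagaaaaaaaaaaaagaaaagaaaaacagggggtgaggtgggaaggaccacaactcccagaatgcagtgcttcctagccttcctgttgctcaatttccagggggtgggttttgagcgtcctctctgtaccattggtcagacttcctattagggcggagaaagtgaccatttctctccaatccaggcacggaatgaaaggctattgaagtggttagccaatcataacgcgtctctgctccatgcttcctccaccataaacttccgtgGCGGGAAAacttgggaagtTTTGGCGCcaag
Mcm5: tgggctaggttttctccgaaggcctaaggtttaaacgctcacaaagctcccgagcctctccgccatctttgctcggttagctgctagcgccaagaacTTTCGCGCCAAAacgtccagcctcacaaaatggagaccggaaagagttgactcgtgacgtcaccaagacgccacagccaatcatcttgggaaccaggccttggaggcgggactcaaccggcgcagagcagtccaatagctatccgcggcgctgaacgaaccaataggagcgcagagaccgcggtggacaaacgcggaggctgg
Mcm6: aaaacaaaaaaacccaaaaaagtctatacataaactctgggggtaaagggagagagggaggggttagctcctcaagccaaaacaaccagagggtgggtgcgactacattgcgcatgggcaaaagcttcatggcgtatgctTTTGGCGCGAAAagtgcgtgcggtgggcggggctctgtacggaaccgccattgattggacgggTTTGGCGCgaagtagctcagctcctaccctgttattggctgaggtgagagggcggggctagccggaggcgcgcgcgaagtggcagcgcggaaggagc
Mcm7: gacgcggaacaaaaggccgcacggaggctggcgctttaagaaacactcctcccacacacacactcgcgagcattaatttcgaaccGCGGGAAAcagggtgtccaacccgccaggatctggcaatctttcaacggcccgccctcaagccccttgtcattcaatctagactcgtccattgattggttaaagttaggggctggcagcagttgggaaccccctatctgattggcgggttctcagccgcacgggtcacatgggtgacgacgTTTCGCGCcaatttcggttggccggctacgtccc
In Mcm5 the capitals are a pair of matches on opposite strands that share bases 102 to 105 of the window, and the same arrangement stands at bases 141 to 152 in Mcm6. Mcm6 has a further match at bases 204 to 211. Both Mcm3 matches, at bases 270 to 277 and 289 to 296, lie after the start. In Mcm7, 1 match begins at base 86 and the other, which overlaps a CCAAT box, begins at base 267.

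The 13 genes with a match were Cdc6, Cdt1, E2f2, Gins3, Lig1, Mcm3, Mcm5, Mcm6, Mcm7, Orc1, Pola1, Pold1 and Rfc3. Their median responses were 0.79 in Clk/Clk, 1.13 in Per2m/m cells and 1.06 in wild type cells, beside 0.82, 0.33 and 0.98 for the 18 genes with a promoter and no match. The 8 genes with no promoter in RefSeq's table had median responses of 0.64 in Clk/Clk, 1.21 in Per2m/m cells and 1.36 in wild type cells. In Per2m/m cells the genes with a match spanned 0.74 to 2.36, and those without a match spanned -2.17 to 2.10. Those with no promoter spanned -1.56 to 6.15. A link between a match and the response was not tested. A CCAAT box, searched as CCAAT, was in 21 of the 37 promoters (56.8%, against 37.4% of all), and 1 of the 19 E2F matches overlaps another searched motif. The cell cycle homology element, searched as TTTGAA, was in 7 promoters (18.9%, against 17.9% of all). The E-box CACGTG, the element bound by CLOCK and its partner BMAL1, was in 4 promoters (10.8%, against 7.15% of all), those of Chaf1a, Fen1, Lig1 and Pola2. All motifs were searched on both strands. These matches describe the letters of the windows.

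Origin licensing genes were higher in transfected cells of all 3 genotypes in 5 of 5 cases, with median responses of 0.78 in Clk/Clk, 1.02 in Per2m/m cells and 0.97 in wild type cells. Cdt1, the loader of the helicase, had transfected levels of 3.97 in Clk/Clk, 6.07 in Per2m/m cells and 4.99 in wild type cells, against mock levels of 3.42, 3.71 and 3.74. Its response of 2.36 in Per2m/m cells, 5.15-fold, was the highest of the 5, and its fitted coefficient was 1.39 ± 0.45 with a limma adjusted p of 0.695, or 0.90 without the transfected Per2m/m array. Orc6, a subunit of the origin recognition complex, had the lowest coefficient of the 5, 0.55 ± 0.29. Orc6 levels were 3.79 in transfected Clk/Clk, 4.24 in transfected Per2m/m and 4.80 in transfected wild type cells, against 3.38, 3.98 and 3.83 in mock cells, so its transfected Clk/Clk array lay below the mock Per2m/m and wild type arrays. Gmnn, which encodes the CDT1 inhibitor geminin, responded by 1.00 in Clk/Clk, 1.15 in Per2m/m cells and 1.36 in wild type cells. A dimmer second Gmnn probe, on a different transcript, gave 0.96, 1.22 and -0.31. Cdc6, the ATPase that recruits CDT1, responded by 0.80, 0.74 and 0.91 in these genotypes, and Orc1 by 0.78, 1.02 and 0.50. A second Cdc6 probe gave 0.52, 0.04 and 0.55, so the Per2m/m response was close to 0 on it.

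Among the 8 origin firing genes, 4 were higher in transfected cells of all 3 genotypes, and Ccne1, Gins2 and Gins3 had a response below 0 in at least 1 genotype. Ccne2 was below background on 5 of the 6 arrays and has no interpretable direction in Clk/Clk or Per2m/m cells. Gins1 had the highest coefficient among them, 1.28 ± 0.37 (limma adjusted p = 0.695). It encodes a GINS subunit, and its levels were 1.73 in transfected Clk/Clk, 2.51 in transfected Per2m/m and 2.55 in transfected wild type cells, against 1.20, 0.72 and 1.02 in mock cells. Gins2, which encodes another subunit of the same complex, stood at 2.18 in transfected Clk/Clk, 1.03 in transfected Per2m/m and 3.43 in transfected wild type cells, against 1.78, 2.59 and 2.08 in mock cells. The transfected Per2m/m array was thus the lowest of the 6 for Gins2, with a response of -1.56, and the transfected wild type array the highest, with a response of 1.36. Gins3 responded by -0.38 in Clk/Clk, 0.83 in Per2m/m cells and 0.65 in wild type cells.

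Ccne1, which encodes the G1/S cyclin E1, had the lowest coefficient of the firing genes, -0.25 ± 0.70 (limma adjusted p = 0.887). Its level was 4.29 in transfected Clk/Clk, 2.48 in transfected Per2m/m and 4.03 in transfected wild type cells, against 2.81, 4.06 and 4.70 in mock cells. The responses of 1.48 in Clk/Clk, -1.58 in Per2m/m cells and -0.67 in wild type cells had no common direction. A second Ccne1 probe gave 1.37, -1.89 and -0.55. Without the transfected Per2m/m array the Ccne1 coefficient was 0.41, so its sign rested on that array. Ccne2, the other cyclin E gene, was well above background on 1 array, that of transfected wild type cells, where it was at least 1.46-fold higher than in mock wild type cells. Cdc7, the kinase that phosphorylates the helicase, responded by 2.10 in Clk/Clk, 0.05 in Per2m/m cells and 0.44 in wild type cells, and a second Cdc7 probe by 1.04, 0.50 and 0.85. Cdc7 was dim, with levels from -4.36 to -1.94 on its brightest probe. Its Per2m/m response, below the spot noise, still counts it among the genes higher in all 3 genotypes. Cdc45 and Mcm10, which act at the helicase as it is activated, responded by 0.69 and 0.91 in Clk/Clk, 0.99 and 1.21 in Per2m/m and 1.08 and 0.95 in wild type cells.

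**Figure D3:**
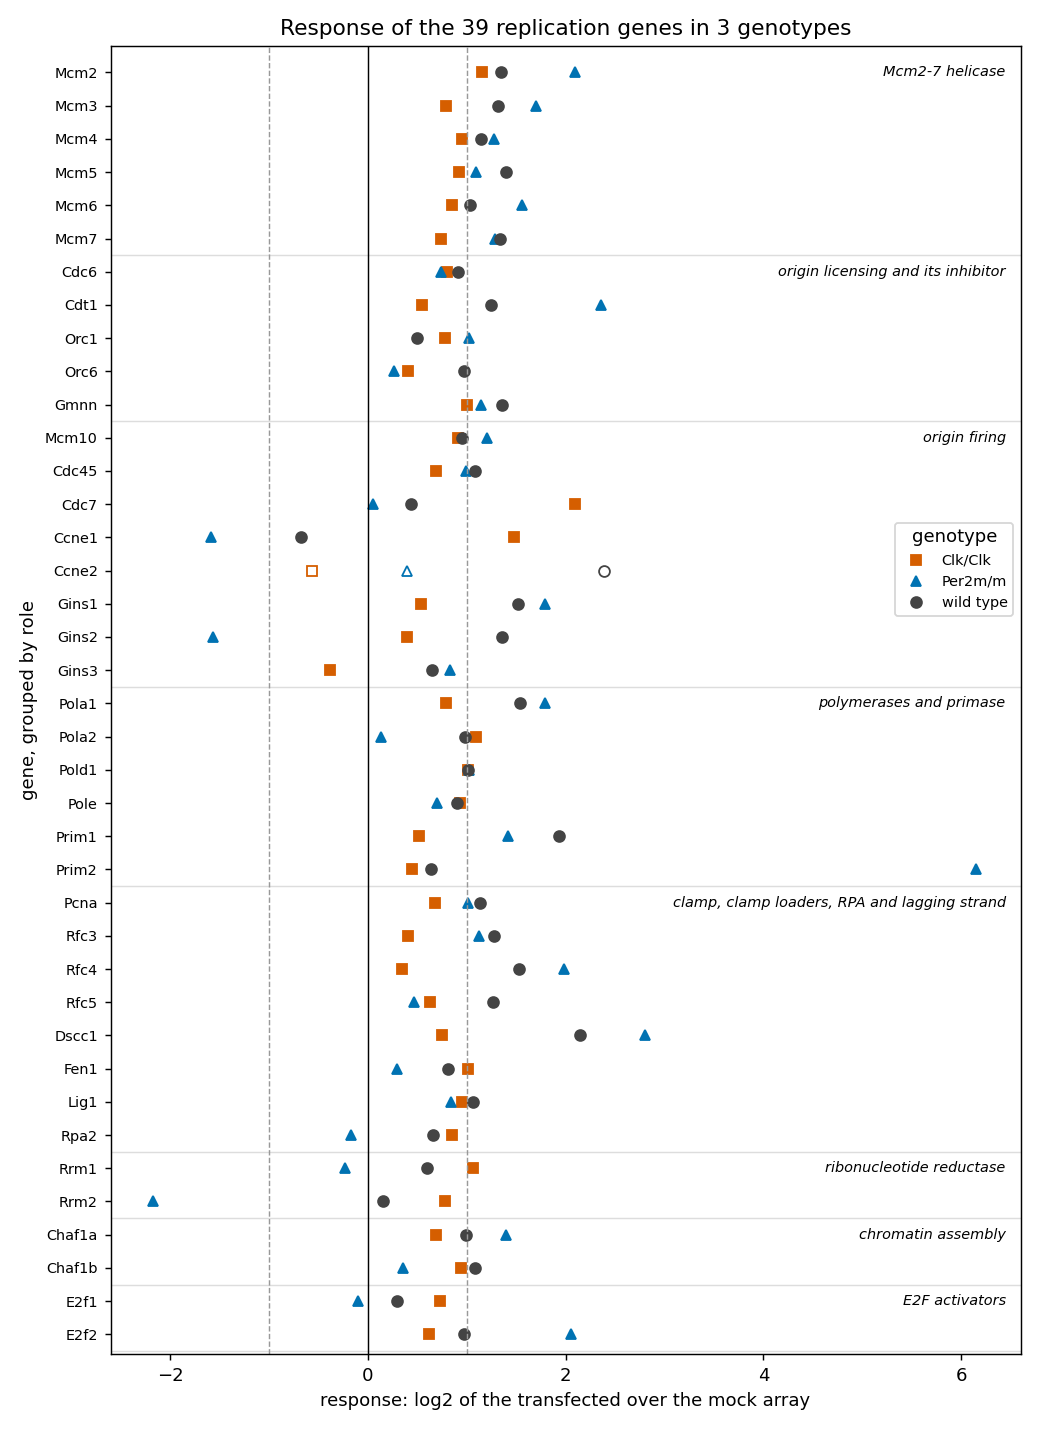
Response of each of the 39 genes (log2 of the transfected over the mock array, horizontal axis) in Clk/Clk (squares), Per2m/m (triangles) and wild type (circles) cells, with genes grouped by role and dashed lines at a 2-fold difference. Open marks are Ccne2, which was above background on 1 array. Most marks lie to the right of 0, and Rrm2, Ccne1 and Gins2 lie beyond the left dashed line in Per2m/m cells.

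Polymerase and primase genes were higher in transfected cells of all 3 genotypes in 6 of 6 cases, and for 5 of them every transfected array lay above every mock array. Pold1, the catalytic subunit of the lagging-strand polymerase delta, had levels of 3.56 in transfected Clk/Clk, 3.77 in transfected Per2m/m and 4.00 in transfected wild type cells, against 2.55, 2.75 and 2.99 in mock cells. Its responses of 1.01, 1.02 and 1.01 differed by less than the spot noise. Pole, the catalytic subunit of the leading-strand polymerase epsilon, responded by 0.93 in Clk/Clk, 0.70 in Per2m/m cells and 0.90 in wild type cells on its brightest probe. A dimmer Pole probe that was above background on all 6 arrays gave 0.91, -0.72 and 1.37. Pola1 and Prim1, the catalytic subunits of the polymerase alpha-primase complex, responded by 0.79 and 0.52 in Clk/Clk, 1.79 and 1.42 in Per2m/m and 1.54 and 1.93 in wild type cells. Pola2, the second subunit of polymerase alpha, had the lowest coefficient of this role, 0.74 ± 0.33 (limma adjusted p = 0.695), with levels of -1.14 in transfected Clk/Clk, -1.25 in transfected Per2m/m and -0.52 in transfected wild type cells, against -2.23, -1.38 and -1.50 in mock cells.

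Prim2, the regulatory primase subunit, had the highest coefficient of all 39 genes and also the widest error, 2.41 ± 1.37. Its levels were 2.21 in transfected Clk/Clk, 2.22 in transfected Per2m/m and 0.58 in transfected wild type cells, against 1.76, -3.93 and -0.06 in mock cells. The mock Per2m/m array alone was far below the rest, which gave a response of 6.15, or 71.0-fold, in Per2m/m cells, beside 0.45 in Clk/Clk and 0.64 in wild type cells. The brightest Prim2 probe is at chr1:33510733-33510792 (mm9). A second probe at chr1:33535912-33535971, on a different transcript, gave -0.03 in Per2m/m, 0.44 in Clk/Clk and -0.17 in wild type cells, so the large Per2m/m value was not seen on it. The Prim2 coefficient was 0.54 without the transfected Per2m/m array, which took away its rank, and 1.25 with the mean of both probes.

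At the clamp and on the lagging strand, 7 of 8 genes were higher in transfected cells of all 3 genotypes, and for the same number every transfected array lay above every mock array. Dscc1, a subunit of the alternative clamp loader that acts with sister chromatid cohesion, had the highest coefficient of this role, 1.90 ± 0.50 (limma adjusted p = 0.695). Its levels were 0.13 in transfected Clk/Clk, 1.97 in transfected Per2m/m and 1.55 in transfected wild type cells, against -0.62, -0.84 and -0.60 in mock cells. The mock arrays lay within 0.23 of each other, while the transfected arrays spanned 1.84. Rpa2, a subunit of the single-strand binding protein RPA, had the lowest coefficient, 0.44 ± 0.33 (0.75 without the transfected Per2m/m array), with levels of 0.99 in transfected Clk/Clk, 0.58 in transfected Per2m/m and 1.51 in transfected wild type cells, against 0.15, 0.76 and 0.85 in mock cells. Pcna, the sliding clamp, responded by 0.68 in Clk/Clk, 1.01 in Per2m/m cells and 1.14 in wild type cells. The clamp loader genes Rfc3, Rfc4 and Rfc5 responded by 0.41, 0.35 and 0.63 in Clk/Clk, 1.13, 1.98 and 0.47 in Per2m/m and 1.28, 1.53 and 1.27 in wild type cells. A second Rfc4 probe gave 0.72 in Clk/Clk, 1.84 in Per2m/m cells and 1.54 in wild type cells, and a dimmer second Rfc5 probe, on a different transcript, gave 0.85, 0.26 and 0.16. Fen1 and Lig1, the nuclease and the ligase that finish Okazaki fragments, responded by 1.01 and 0.95 in Clk/Clk, 0.30 and 0.84 in Per2m/m and 0.81 and 1.06 in wild type cells.

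Ribonucleotide reductase makes the deoxynucleotides for synthesis, and its genes Rrm1 and Rrm2 were lower on the transfected than on the mock Per2m/m array. Rrm1, its large subunit, had levels of 4.92 in transfected Clk/Clk, 4.26 in transfected Per2m/m and 5.02 in transfected wild type cells, against 3.86, 4.49 and 4.42 in mock cells. Rrm2, the small subunit that is made in S phase, stood at 5.69 in transfected Clk/Clk, 4.17 in transfected Per2m/m and 6.33 in transfected wild type cells, against 4.91, 6.34 and 6.17 in mock cells. The transfected Per2m/m array was the lowest of the 6 for Rrm2, with a response of -2.17, while the responses were 0.78 in Clk/Clk and 0.15 in wild type cells. For Rrm1 the decrease in Per2m/m cells was smaller, at -0.23. Rrm2b, a gene outside the set, moved the other way in Per2m/m cells, by 0.98. Ccne1, Gins2, Rpa2 and E2f1 were also lower on the transfected Per2m/m array, while 33 of the 39 genes were higher. The fitted coefficients were 0.48 ± 0.36 for Rrm1 and -0.41 ± 0.69 for Rrm2, with limma adjusted p of 0.695 and 0.822, and without the transfected Per2m/m array they were 0.83 and 0.47.

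Chromatin assembly factor 1 deposits histones behind the fork, and its genes Chaf1a and Chaf1b had every transfected array above every mock array. Chaf1a levels were 2.93 in transfected Clk/Clk, 3.69 in transfected Per2m/m and 3.23 in transfected wild type cells, against 2.24, 2.29 and 2.24 in mock cells (coefficient 1.03 ± 0.28). Chaf1b levels were 4.62 in transfected Clk/Clk, 4.16 in transfected Per2m/m and 5.06 in transfected wild type cells, against 3.67, 3.80 and 3.97 in mock cells (coefficient 0.80 ± 0.29).

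Of the E2F activators, E2f2 had levels of -0.34 in transfected Clk/Clk, 1.13 in transfected Per2m/m and -0.15 in transfected wild type cells, against -0.96, -0.92 and -1.12 in mock cells, with a coefficient of 1.22 ± 0.39. E2f1 had 2.78 in transfected Clk/Clk, 2.24 in transfected Per2m/m and 2.84 in transfected wild type cells, against 2.05, 2.35 and 2.54 in mock cells, with a coefficient of 0.31 ± 0.30. The groups of E2f2 did not overlap, and the transfected Per2m/m array was its highest. Those of E2f1 did overlap, and its transfected Per2m/m array lay below the mock Per2m/m and wild type arrays. Without the transfected Per2m/m array the coefficients were 0.80 for E2f2 and 0.51 for E2f1. The limma adjusted p was 0.695 for Chaf1a, Chaf1b and E2f2, and 0.724 for E2f1.

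The genotypes were also compared at equal treatment. In transfected cells 4 of 39 differences, Clk/Clk minus wild type, were above 0, against 7640 of all 17007 genes. The median difference of the 39 genes was -0.60, beside -0.11 over all genes tested. The size of that median depended on the scaling: it was -1.25 with the array median and -0.34 with quantile normalization or the authors' deposited table. In mock cells the median difference was -0.32 (-0.65 with the array median), beside -0.06, and 13 of 39 were above 0, against 7958 of all 17007. In all, 24 of 39 genes were lower in Clk/Clk cells on both pairs of arrays, where 37.9% of all genes were, and Pole and Prim2 were higher on both. At least 2-fold lower in transfected Clk/Clk cells were 8 of 39 (11.1% of all genes), namely Mcm4, Cdt1, Cdc45, Ccne2, Gins2, Rfc4, Dscc1 and Orc6. Ccne2 was not above background there, and no bound above 1 could be set for it. At least 2-fold higher were 2 of 39 (13.7% of all genes), Cdc7 at 1.41 and Prim2 at 1.64. On the second Cdc7 probe the transfected levels were -2.86 in Clk/Clk and -3.42 in wild type cells, which is under 2-fold. On the second Prim2 probe they were -0.78 and -1.79. In mock Clk/Clk cells, Rrm2 at -1.26 and Ccne1 at -1.89 were the 2 of 39 genes at least 2-fold lower (10.6% of all genes), and Prim2 at 1.82 was the 1 of 39 at least 2-fold higher (10.4%). The second Prim2 probe had mock levels of -1.22 in Clk/Clk and -1.62 in wild type cells, which is under 2-fold. The additive model called 0 of the 39 genes for Clk/Clk against wild type and 0.0% of all genes, with members' adjusted p of 0.506 to 0.997. At an unadjusted p under 0.05 there were 3 of 39 members, Mcm4, Cdc6 and Cdc45, all lower, where 9.28% of all genes were under it.

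For Per2m/m against wild type cells, the median difference, Per2m/m minus wild type, was -0.08 in mock cells, beside 0.02 over all genes, and 1 of 39 genes, Prim2, was at least 2-fold lower (4.47% of all genes). In transfected cells the median was -0.17, beside 0.09, with 4 of 39 genes at least 2-fold lower (16.2% of all genes) and 3 at least 2-fold higher (14.5%). The 4 were Rrm2 at -2.15, Ccne1 at -1.55, Gins2 at -2.40 and Ccne2, which was not above background in transfected Per2m/m cells. The 3 were Cdt1 at 1.09, E2f2 at 1.28 and Prim2 at 1.65. On the second Prim2 probe the direction was opposite, with levels of -2.62 in transfected Per2m/m and -1.79 in transfected wild type cells. In mock cells that probe gave -2.59 and -1.62, the same direction as the brightest probe but under 2-fold. On both pairs of arrays 14 of 39 genes were lower in Per2m/m cells, where 21.6% of all genes were. For Per2m/m against wild type limma called 0 of the 39 and 0.0% of all genes, with members' adjusted p of 0.936 to 0.995 and 0 members at an unadjusted p under 0.05, where 2.25% of all genes were. Median ranges of the 39 genes over arrays of equal treatment were 0.85 for transfected and 0.50 for mock arrays, beside 1.12 and 0.68 over all genes.

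**Figure D4:**
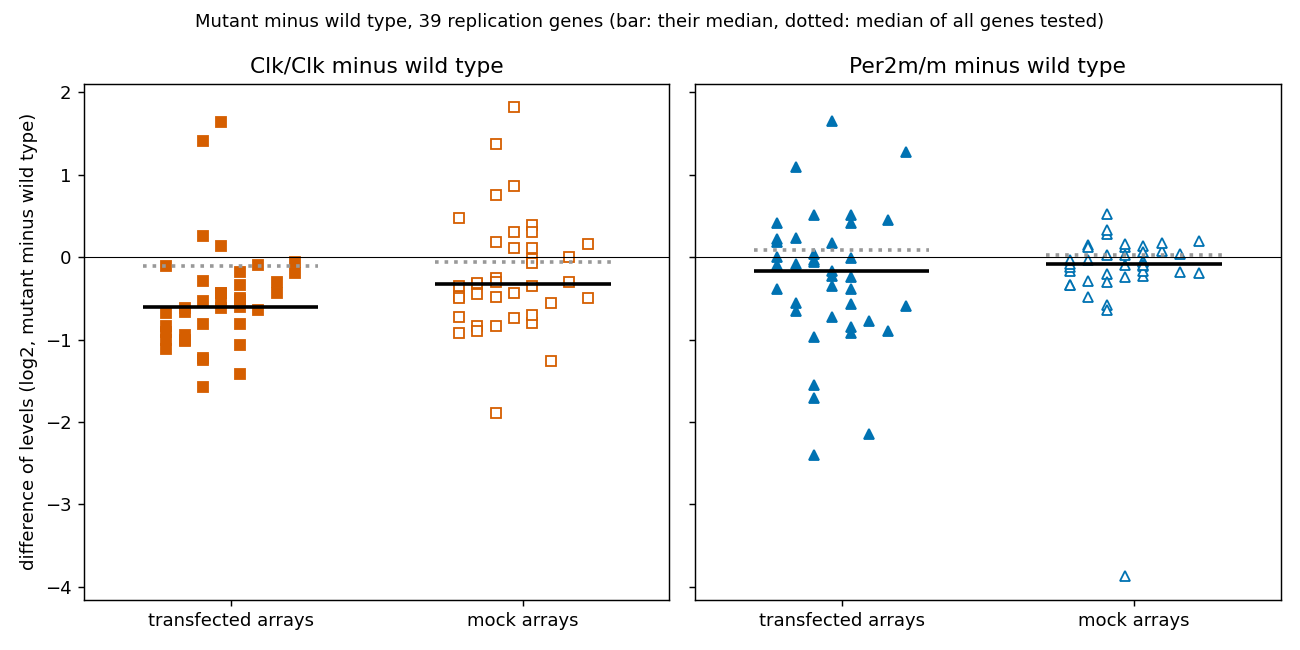
Differences of levels (log2, vertical axis), Clk/Clk minus wild type (left panel) and Per2m/m minus wild type (right panel), for the 39 genes on transfected arrays (filled) and mock arrays (open). Black bars are the medians of the 39 genes, -0.60 and -0.32 for Clk/Clk and -0.17 and -0.08 for Per2m/m, and dotted grey bars are the medians of all genes tested.

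Other gene lists give a scale for these values. Of 49 further replication genes, 48 had a tested probe, and 46 of these had a positive transfection coefficient, with a median of 0.61. The highest in that list were Recql4, a helicase needed for origin firing, at 1.59 ± 0.28 and Dbf4, the activating subunit of CDC7, at 1.47 ± 0.48, and the lowest were Pold4 at -0.54 ± 0.45 and Cdc25a at -0.06 ± 0.47. Mitosis genes had a positive coefficient in 25 of 25 cases with a median of 0.83. At least 2-fold higher levels were counted for 0 of the 25 in Clk/Clk, where 3.77% of all genes reached that size. The count was 4 of 25 in Per2m/m cells, against 18.5% of all genes, so it did not exceed that share. In wild type cells it was 24 of 25, against 7.43%. Their highest coefficients were those of Ttk, 1.20 ± 0.34, and Bub1b, 1.07 ± 0.47, and their lowest those of Ccnb2, 0.58 ± 0.56, and Plk1, 0.60 ± 0.42. The median responses of the mitosis genes were 0.40 in Clk/Clk, 0.71 in Per2m/m cells and 1.53 in wild type cells, so they were below those of the 39 replication genes in both mutants and above them in wild type cells. That difference between lists was not tested, and the part of cell proliferation in it was not tested.

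The 11 other genes of the E2F and RB family had a median coefficient of 0.04, with 7 above 0. Rbl1, the RB relative p107, was highest at 1.09 ± 0.25, followed by the repressor E2f8 at 0.88 ± 0.35. E2f6 was lowest at -2.53 ± 1.70, with a level of -3.40 in transfected Per2m/m against 3.77 in mock Per2m/m cells, and Rb1 was next at -0.70 ± 0.37. In these 3 lists limma called 0 genes, with adjusted p of 0.695 to 0.988. At an unadjusted limma p under 0.05 there were 16 of 48 further replication genes, 8 of 25 mitosis genes and 1 of 11 E2F and RB family genes. All of them were higher, where 2.06% of all genes tested were higher.

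**Figure D5:**
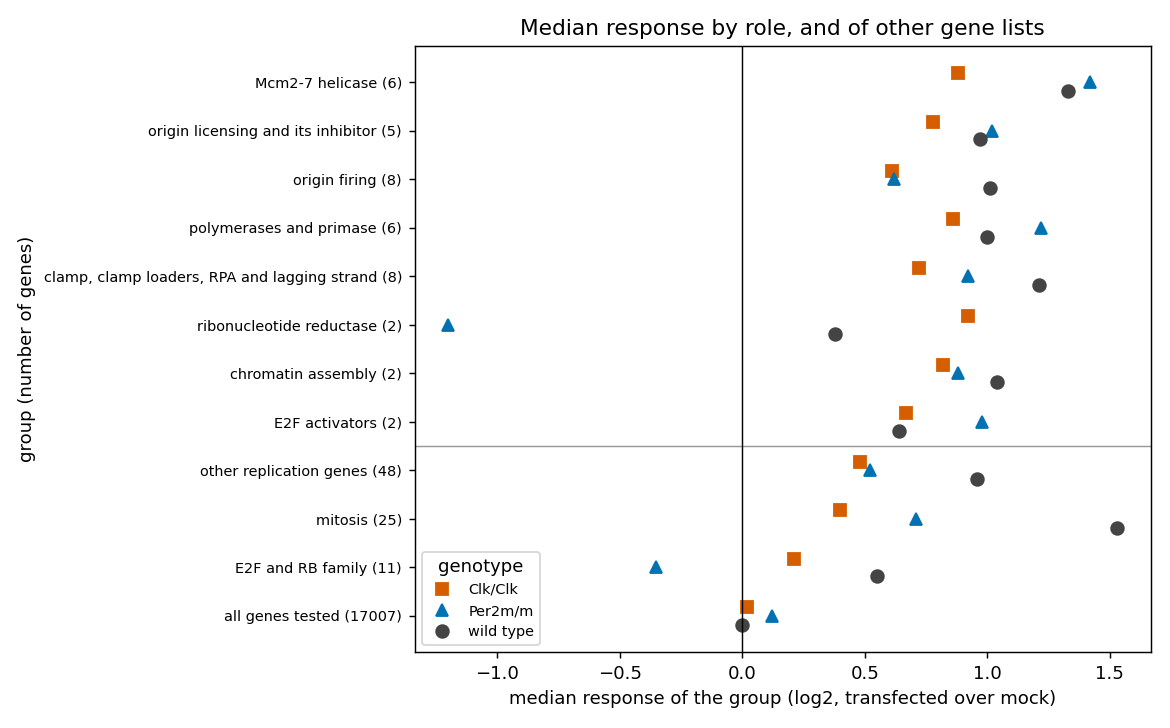
Median response (log2 of the transfected over the mock array, horizontal axis) of each role among the 39 genes and, below the line, of the further lists and all genes tested, with the number of genes in brackets, in Clk/Clk (squares), Per2m/m (triangles) and wild type (circles) cells. Every role lies right of 0 except ribonucleotide reductase in Per2m/m cells.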

How the data were processed

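Total RNA of mouse embryonic fibroblasts was hybridised to 6 single-colour Agilent arrays, 1 per combination of genotype and transfection, on 1 slide, where row 1 held the wild type and Clk/Clk arrays and row 2 those of Per2m/m. The deposited scanner output gives a processed intensity per spot on a linear scale, from Feature Extraction 10.7.1.1 per the file headers, while the submitters' processing notes name version 9.5.1.1. The authors' deposited series table, also linear intensity, had a median of 23.8 in every column and correlated with the log2 processed signal of its own array at 0.998 or above.

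Outlier spots (85 to 125 per array) were left out, no spot was saturated, spots of a probe were averaged, and log2 of the processed signal minus that of each array's 75th percentile was used. Genes are the symbols of the scanner files. Probes well above background on at least 1 array were kept, and the brightest stood for its gene, which left 17007 of 22989 symbols. Of the 39 genes, 38 were well above background on all 6 arrays. Probe coordinates are those of the files (mm9). Motifs came from RefSeq promoters.

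An additive model (genotype and transfection, 2 residual degrees of freedom) was fitted using the limma package (3.58.1, under R 4.3.3) and run on simulated data. The simulated data had independent noise and the same transfection change in every genotype, so responses that differ between genotypes were not tried. Values after ± are the model's standard errors, in which limma draws each gene's spread toward a value shared by all genes tested. A response was counted from 2-fold upwards where the brighter of its arrays was well above background. A gene below background in 1 group has a bound, from the brighter level against the higher of its own dim level and the lowest level well above background on that array. Full values are given for Mcm2 to Mcm7, for the members with the highest and lowest coefficient in each other role, and for members at least 2-fold changed in opposite directions in 2 genotypes, and of each further list the 2 highest and the 2 lowest. The members and lists were chosen with earlier results of these data known. Other scalings, background correction, probe choice, filters and array sets were tried. The number of arrays limits the precision.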

Additional observations from a re-analysis of the deposited data

Results flagged for a closer look

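For 7 of the 39 genes the response was above 0 in at least 1 genotype and below 0 in another, counting responses with at least 1 of both arrays well above background. Ccne2 was left out because its Clk/Clk and Per2m/m arrays were all below background. The highest minus the lowest response was 3.06 for Ccne1, 2.95 for Rrm2, 2.92 for Gins2, 1.29 for Rrm1, 1.21 for Gins3, 1.02 for Rpa2 and 0.83 for E2f1. The lowest response was in Per2m/m cells for 6 of these genes and in Clk/Clk cells for Gins3. With 1 array per group these differences were not tested, and the Per2m/m values rest on the transfected array that stood apart from the others.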

How the results depend on the processing

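Limma called 0 of the members for transfection under every scaling, background correction, probe choice, filter and set of arrays that was run. The number of members with a positive coefficient was 35 to 39 over these fits, and the lowest adjusted p of a member in any of them was 0.539. Fitting without the transfected Per2m/m array, or without both Per2m/m arrays, which gives the same coefficients, made all 39 positive, 15 of them at an unadjusted p under 0.05, where 3.54% of all genes were. Without both wild type arrays 0 members were under it, and 1.38% of all genes. With the array median in place of the 75th percentile, the median coefficient was 1.14 and the median responses were 1.30 (Per2m/m cells) and 1.38 (wild type cells), and the median differences of Clk/Clk from wild type were -1.25 in transfected and -0.65 in mock cells. Under that scaling the median of all genes was -0.76 for transfected and -0.39 for mock Clk/Clk minus wild type, beside -0.11 and -0.06 under the 75th percentile. Relative to the median of all genes, the members' differences were -0.49 and -0.26 under both scalings. That equality was fixed in advance, because this change of scaling moves every gene of an array by the same amount. With quantile normalization or the authors' deposited table the transfected difference was -0.34, or -0.22 relative to all genes, so its size depends on the scaling. Of single genes, the coefficient turned to 0.41 for Ccne1 and 0.47 for Rrm2 without the transfected Per2m/m array or without both Per2m/m arrays. That of Gins2 turned to -0.01 with quantile normalization or the authors' table, to -0.58 without both wild type arrays and to -0.10 without both Clk/Clk arrays, and was 0.88 without the transfected Per2m/m array. By over 1.5 times moved also Orc6 (0.34), Rrm2 (-0.70) and Ccne1 (-0.05) without both wild type arrays, Ccne1 (-0.06), Rrm2 (-0.21), Gins2 (0.26) and E2f1 (0.51) with the array median, and Ccne1 (-1.12), Rrm2 (-1.01), Rrm1 (0.18), Rpa2 (0.24) and E2f1 (0.10) without both Clk/Clk arrays. The causes were not tested. The count of members at least 2-fold higher ran from 17 (quantile normalization) to 30 (array median) in wild type cells. In Per2m/m cells it ran from 16 to 25 under the same settings, and in Clk/Clk cells from 5 to 8 over all settings. No share over all genes is given beside these counts. In all, 223 single coefficients kept their direction and side of the threshold, and 103 values for the gene set moved by less than 0.15, the SD of the 3 median responses, or 1.5 times for counts. Chosen after seeing the data were the count of genes without overlap when the transfected Per2m/m array is left out (29), the count higher in Clk/Clk and wild type cells alone (36), the wild type count with Ccne2 at its bound (21) and the Per2m/m median without Rrm2, Ccne1, Gins2 and Prim2 (1.02). For the count of 36 the share over all genes was not computed, so the count cannot be read against it. Genotype is a term of the model, which therefore compares the transfected and the mock array within each genotype. With 1 array per group there are no numbered replicates to pair further.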
